A study of Homo sapiens with 16 samples.

Results

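SGK1, ARHGEF3, PKP2, DGKK, IGSF23, PLA2G12B and DIO1 are 7 of the 22464 named genes measured in HepG2, a human hepatoma cell line that keeps many hepatocyte functions. They lie on chromosomes 6, 3, 12, X, 19, 10 and 1 in that order. They were chosen by their measured response to histidine depletion, which was more positive with the MEK inhibitor PD98059 than with its solvent DMSO, so that difference is given for them as a description with no test. Cells had been pretreated with 2.5 uM PD98059 or an equal volume of DMSO for 1 h and were then kept for 8 h, with the inhibitor still present. The groups, named by their titles, were PD-His (PD98059, medium lacking histidine), PD-DMEM (PD98059, complete medium), DMSO-His (DMSO, medium lacking histidine) and DMSO-DMEM (DMSO, complete medium). Each held 4 arrays from independent incubations of 1 cell line, and all cells were grown in Dulbecco's modified Eagle's medium with fetal bovine serum, nonessential amino acids, glutamine, streptomycin, penicillin and amphotericin B.

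MEK is the kinase that phosphorylates and activates ERK, and PD98059 blocks the activation of MEK. Histidine is an essential amino acid. Its loss leaves tRNA uncharged, which activates the kinase GCN2 and, through phosphorylation of the initiation factor eIF2, favours translation of the transcription factor ATF4. Several of the listed genes meet signalling that also depends on growth factors and nutrients. SGK1 encodes the serum- and glucocorticoid-regulated kinase, a relative of AKT that is activated by PDK1 and by mTORC2, the mTOR complex that contains RICTOR. ARHGEF3, also called XPLN, is an exchange factor that activates the small GTPases RHOA and RHOB and that also binds mTORC2. PKP2 encodes plakophilin 2, an armadillo-repeat protein of the desmosomal plaque. DGKK is a diacylglycerol kinase, which turns diacylglycerol into phosphatidic acid. IGSF23 encodes a membrane protein of the immunoglobulin superfamily. PLA2G12B belongs to the secreted phospholipase A2 family but lacks its catalytic activity, and in mice it is needed for normal lipid loading of very low density lipoprotein. DIO1 is a selenoenzyme of liver, kidney and thyroid that removes iodine from thyroxine to make the active hormone.

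The median log2 value of an array was 6.20 to 6.28. The array of PD-His replicate 3 was farthest from the others of its group: its deviations from the group means had a root mean square of 0.111 over all genes, against 0.0496 to 0.0760 on the other 15 arrays, so the differences of responses and the list counts it moves most are also given without it. EGR1, a target of ERK signalling, averaged 8.84 in PD-His and 6.79 in PD-DMEM, against 11.43 in DMSO-His and 7.91 in DMSO-DMEM. DUSP6, another such target, averaged 8.49 in PD-His and 6.87 in PD-DMEM, against 9.77 in DMSO-His and 8.56 in DMSO-DMEM. Both were lower with PD98059 in both media. The rise of EGR1 with depletion was smaller with PD98059 than with DMSO, while that of DUSP6 was larger. ASNS, a target of ATF4, averaged 9.79 in PD-His against 8.11 in PD-DMEM, and 10.10 in DMSO-His against 8.11 in DMSO-DMEM. All 10 measured hepatocyte markers, ALB and AFP among them, were above the median of all values (6.22). So were 8 of 11 markers of other cell types, led by LYZ at 12.9 to 13.3, while PTPRC, the leukocyte marker, lay at 3.88 to 3.97. The mean of the 11 was 7.58 to 7.69 in PD-His, 7.61 to 7.64 in PD-DMEM, 7.62 to 7.65 in DMSO-His and 7.59 to 7.64 in DMSO-DMEM. The labels give no batch.

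Each of the 7 had a single row in the value table, so its transcripts are not told apart. All group means of the 7 genes were above the median of all values, which takes in unnamed rows and is not a detection limit. SGK1 was the dimmest, with group means of 6.90 to 7.52. GFAP and MYH7, markers of other cell types, had 7.42 to 7.52 and 6.88 to 6.95. The other listed genes averaged at least 7.77 in every group. RefSeq's promoter table (GRCh38.p14) held 11 transcription start sites for 6 of them, and PKP2 was not among them. The windows of 250 bases before the start were searched on both strands for 9 motifs. TATAAA was found before every start of SGK1, and in 10.7% of all 35116 windows. The ETS motif CCGGAAGT, which is bound by factors that ERK phosphorylates, was found before the second of 4 starts of ARHGEF3 and in 3.42% of all windows. No match in the 11 windows was found for TGATGNAA (the core of the element bound by ATF4 and C/EBP factors, 3.14% of all windows), TGACGTCA (CRE, 1.65%), TGANTCA (AP-1, 6.57%), TGTTTAC (FOXO, 2.98%), CAAAGTCCA (HNF4A, 0.325%), the glucocorticoid response element (0.327%) or the CArG box (1.16%). The 9 motifs do not contain each other. A match is a run of letters and not a shown binding site.

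The 3 windows before the starts of SGK1 are shown because a single array row cannot tell its transcripts apart and each window holds TATAAA (capitals, TTTATA where it lies on the opposite strand). Counted from the start, the matches lay at -96 to -91 for start 1, -15 to -10 for start 2 and -27 to -22 for start 3. All are on the minus strand of chromosome 6 and are printed 5′ to 3′ in the direction of transcription, at chr6:134318113-134318362, chr6:134177862-134178111 and chr6:134174867-134175116 in the order given. Their GC contents were 33.6%, 41.6% and 76.0%, against a median of 58.0% over all windows.
SGK1 start 1: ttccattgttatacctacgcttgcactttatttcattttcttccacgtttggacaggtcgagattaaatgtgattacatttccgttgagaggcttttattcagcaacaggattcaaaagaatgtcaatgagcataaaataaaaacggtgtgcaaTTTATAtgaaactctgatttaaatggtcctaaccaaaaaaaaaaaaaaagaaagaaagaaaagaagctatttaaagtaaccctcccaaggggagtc
SGK1 start 2: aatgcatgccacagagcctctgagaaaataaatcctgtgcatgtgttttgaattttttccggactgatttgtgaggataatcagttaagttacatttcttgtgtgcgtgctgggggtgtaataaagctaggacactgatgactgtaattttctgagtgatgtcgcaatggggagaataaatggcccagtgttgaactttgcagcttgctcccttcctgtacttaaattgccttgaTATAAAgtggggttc
SGK1 start 3: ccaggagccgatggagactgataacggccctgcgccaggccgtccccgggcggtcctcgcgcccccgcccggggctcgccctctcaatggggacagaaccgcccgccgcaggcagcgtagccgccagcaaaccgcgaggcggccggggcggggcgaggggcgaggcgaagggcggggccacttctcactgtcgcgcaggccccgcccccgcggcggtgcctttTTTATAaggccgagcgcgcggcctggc
ARHGEF3 start 2, on the minus strand at chr3:57078785-57079034, is shown for its ETS motif (capitals, read on the opposite strand). The window of PLA2G12B, on the minus strand at chr10:72954807-72955056, and that of DIO1, on the plus strand at chr1:53893937-53894186, are shown as those of the pair with the highest averaged difference with PD98059 among the 7, and hold none of the 9 motifs.
ARHGEF3 start 2: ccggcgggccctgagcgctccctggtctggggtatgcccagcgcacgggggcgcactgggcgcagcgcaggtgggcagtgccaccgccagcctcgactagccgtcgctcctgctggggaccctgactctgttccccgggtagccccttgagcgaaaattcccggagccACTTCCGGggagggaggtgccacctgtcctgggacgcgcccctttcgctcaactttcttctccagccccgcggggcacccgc
PLA2G12B: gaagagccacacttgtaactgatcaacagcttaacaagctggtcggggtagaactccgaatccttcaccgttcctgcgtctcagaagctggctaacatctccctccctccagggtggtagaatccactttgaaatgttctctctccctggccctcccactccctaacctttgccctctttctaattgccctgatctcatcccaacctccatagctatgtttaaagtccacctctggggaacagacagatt
DIO1: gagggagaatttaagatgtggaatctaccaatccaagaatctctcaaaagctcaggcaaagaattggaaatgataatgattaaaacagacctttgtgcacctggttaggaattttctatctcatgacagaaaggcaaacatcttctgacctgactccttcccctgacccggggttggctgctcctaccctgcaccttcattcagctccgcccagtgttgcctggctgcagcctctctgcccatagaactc

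SGK1, ARHGEF3 and PKP2 had lower expression after depletion with DMSO and nearly the same expression with and without histidine under PD98059. SGK1 measured 7.39, 7.40, 7.33 and 7.42 on the 4 PD-His arrays, 7.48, 7.43, 7.41 and 7.45 on the PD-DMEM arrays, 6.87, 6.92, 6.87 and 6.93 on the DMSO-His arrays and 7.56, 7.50, 7.52 and 7.52 on the DMSO-DMEM arrays (log2). The DMSO-His arrays were all below every other array, PD-His and PD-DMEM overlapped, and DMSO-DMEM was the highest group. SGK1 was thus 1.04-fold lower in PD-His than in PD-DMEM (-0.06 ± 0.0266, log2 difference ± standard error of the fit) and 1.55-fold lower in DMSO-His than in DMSO-DMEM (-0.63 ± 0.0266). The response with PD98059 minus that with DMSO, called the difference of responses from here on, was 0.57 ± 0.0376, and 0.59 without PD-His replicate 3. PD98059 went with a 1.4-fold higher SGK1 level in depleted medium (0.49 ± 0.0266) and with a slightly lower one in complete medium (-0.08 ± 0.0266). As these are extracts of whole cultures, fewer cells with a transcript and less transcript per cell cannot be told apart.

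ARHGEF3 measured 8.90, 8.84, 8.76 and 8.87 on the 4 PD-His arrays, 8.87, 8.86, 8.82 and 8.88 on the PD-DMEM arrays, 8.23, 8.32, 8.25 and 8.27 on the DMSO-His arrays and 8.78, 8.76, 8.78 and 8.78 on the DMSO-DMEM arrays (log2). The DMSO-His arrays were again below all others, and the 3 remaining groups lay close together, with PD-His overlapping both PD-DMEM and DMSO-DMEM. The level in PD-His differed from that in PD-DMEM by -0.02 ± 0.0298, while DMSO-His was 1.42-fold below DMSO-DMEM (-0.51 ± 0.0298). The difference of responses was 0.49 ± 0.0422, and 0.52 without PD-His replicate 3, which was the lowest PD-His array for all 7 genes. The antisense transcript ARHGEF3-AS1, on a row of its own, averaged 5.13 in PD-His, 5.19 in PD-DMEM, 5.15 in DMSO-His and 5.22 in DMSO-DMEM, below the median of all values.

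PKP2 was the brightest row of the 7 and differed with PD98059 in both media. It measured 10.87, 10.79, 10.74 and 10.78 on the 4 PD-His arrays, 10.85, 10.83, 10.78 and 10.81 on the PD-DMEM arrays, 10.02, 10.08, 10.08 and 10.09 on the DMSO-His arrays and 10.56, 10.49, 10.54 and 10.50 on the DMSO-DMEM arrays (log2). The order was PD-DMEM and PD-His, which overlapped, then DMSO-DMEM, then DMSO-His, with no overlap at the last 2 steps. PD-His differed from PD-DMEM by -0.02 ± 0.0303, against -0.45 ± 0.0303 for DMSO-His from DMSO-DMEM. Its difference of responses was 0.43 ± 0.0428, and 0.45 without PD-His replicate 3. With PD98059 it was 1.66-fold higher in depleted medium (0.73) and 1.23-fold higher in complete medium (0.30).

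**Figure D1:**
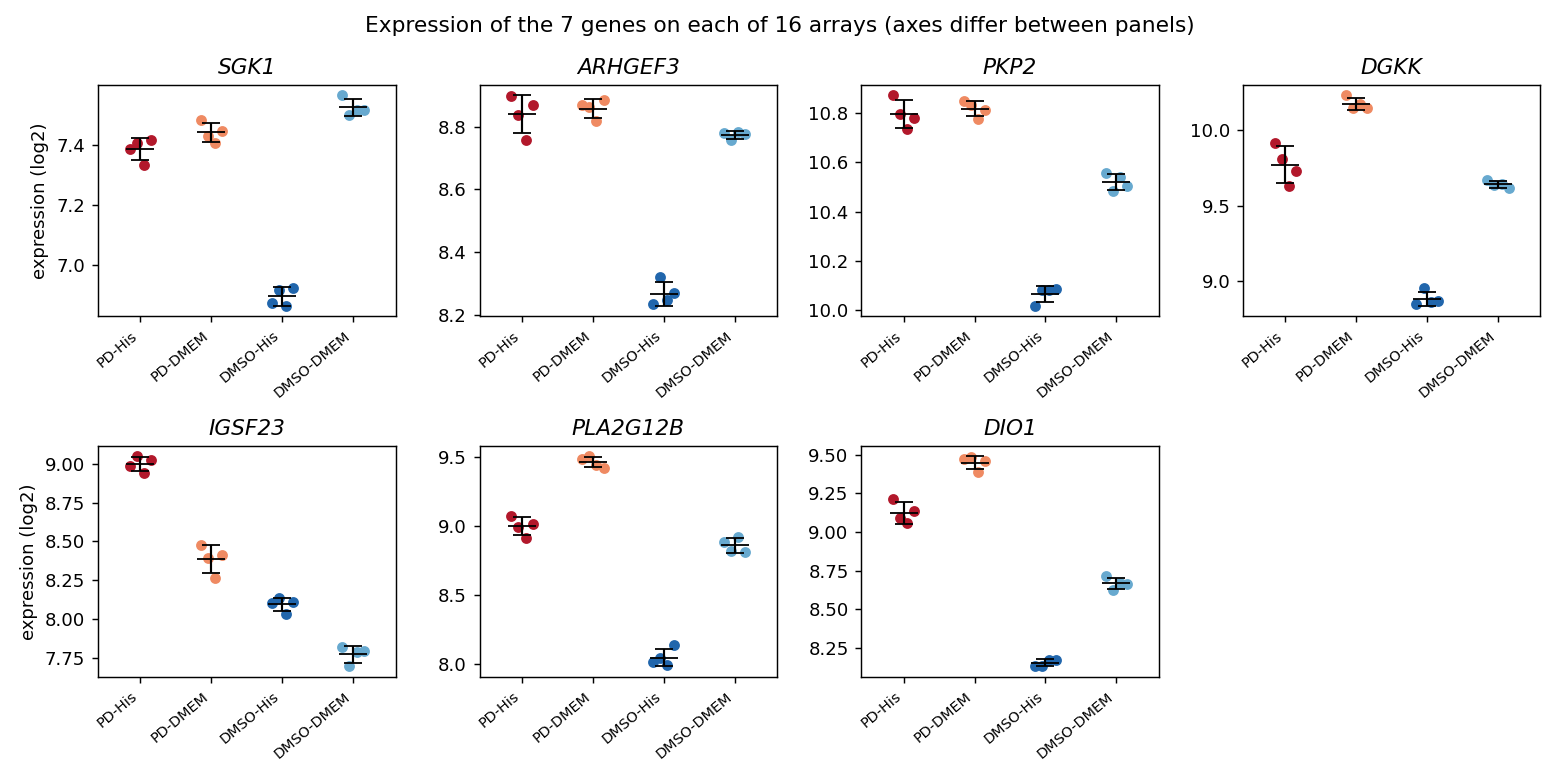
Expression (log2) of each of the 7 genes by group, with 1 point per array, the group mean (line) and its SD (bars), 4 arrays a group. In 6 panels the DMSO-His arrays lie below every other array, and in the IGSF23 panel the DMSO-DMEM arrays do. Of all genes, 7.65% had the first separation and 1.83% the second, and the genes were chosen on a value that a low DMSO-His group raises.

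DGKK, PLA2G12B and DIO1 were lower after depletion under both pretreatments and higher with PD98059 in both media. DGKK measured 9.92, 9.81, 9.63 and 9.73 on the 4 PD-His arrays, 10.23, 10.15, 10.18 and 10.15 on the PD-DMEM arrays, 8.85, 8.95, 8.86 and 8.87 on the DMSO-His arrays and 9.67, 9.64, 9.65 and 9.62 on the DMSO-DMEM arrays (log2). DMSO-His was below all other groups, PD-DMEM was above all others, and PD-His overlapped DMSO-DMEM. Depletion went with -0.40 ± 0.0465 under PD98059 and -0.76 ± 0.0465 with DMSO, a difference of responses of 0.36 ± 0.0657. DGKK varied most among the PD-His arrays, with an SD of 0.122 against 0.0234 in DMSO-DMEM, and its difference of responses was 0.41 without PD-His replicate 3.

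PLA2G12B measured 9.07, 8.99, 8.91 and 9.02 on the 4 PD-His arrays, 9.49, 9.51, 9.44 and 9.42 on the PD-DMEM arrays, 8.01, 8.04, 7.99 and 8.13 on the DMSO-His arrays and 8.89, 8.82, 8.92 and 8.81 on the DMSO-DMEM arrays (log2). The groups stood in the same order as for DGKK, with PD-His and DMSO-DMEM again overlapping. PLA2G12B was 1.38-fold lower in PD-His than in PD-DMEM (-0.47 ± 0.0395) and 1.76-fold lower in DMSO-His than in DMSO-DMEM (-0.82 ± 0.0395). Its difference of responses was 0.35 ± 0.0558, and 0.38 without PD-His replicate 3. Over the 16 arrays PLA2G12B and DGKK had a Pearson correlation of 0.99, a description over arrays that share 4 groups.

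DIO1 measured 9.22, 9.09, 9.06 and 9.14 on the 4 PD-His arrays, 9.47, 9.48, 9.39 and 9.46 on the PD-DMEM arrays, 8.13, 8.13, 8.17 and 8.17 on the DMSO-His arrays and 8.72, 8.62, 8.67 and 8.66 on the DMSO-DMEM arrays (log2). For DIO1 none of the groups overlapped, and both PD98059 groups were above both DMSO groups. It was 1.96-fold higher in PD-His than in DMSO-His (0.97 ± 0.0338) and 1.72-fold higher in PD-DMEM than in DMSO-DMEM (0.78 ± 0.0338). Depletion went with -0.33 ± 0.0338 under PD98059 and -0.52 ± 0.0338 with DMSO. The difference of responses, 0.19 ± 0.0477, was the smallest of the 7, and 0.21 without PD-His replicate 3. The mean of the 10 hepatocyte markers was 10.90 to 10.98 in PD-His and 11.02 to 11.05 in PD-DMEM, against 10.82 to 10.87 in DMSO-His and 10.92 to 10.97 in DMSO-DMEM. Its part in the values of PLA2G12B and DIO1, genes of the same tissue, was not tested.

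IGSF23 was the 1 listed gene with higher expression after depletion. It measured 8.98, 9.05, 8.94 and 9.02 on the 4 PD-His arrays, 8.47, 8.39, 8.26 and 8.41 on the PD-DMEM arrays, 8.10, 8.13, 8.03 and 8.11 on the DMSO-His arrays and 7.82, 7.70, 7.79 and 7.79 on the DMSO-DMEM arrays (log2). The 4 groups did not overlap and stood, highest first, in the order PD-His, PD-DMEM, DMSO-His and DMSO-DMEM. Depletion went with 0.62 ± 0.0418 (1.53-fold) under PD98059 and 0.32 ± 0.0418 (1.25-fold) with DMSO, a difference of responses of 0.30 ± 0.0592, and 0.31 without PD-His replicate 3. Its correlation over the 16 arrays with the other listed genes was 0.09 with SGK1 to 0.56 with PKP2, while the 15 pairs among the 6 others had 0.73 (SGK1 and DIO1) to 0.99.

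**Figure D2:**
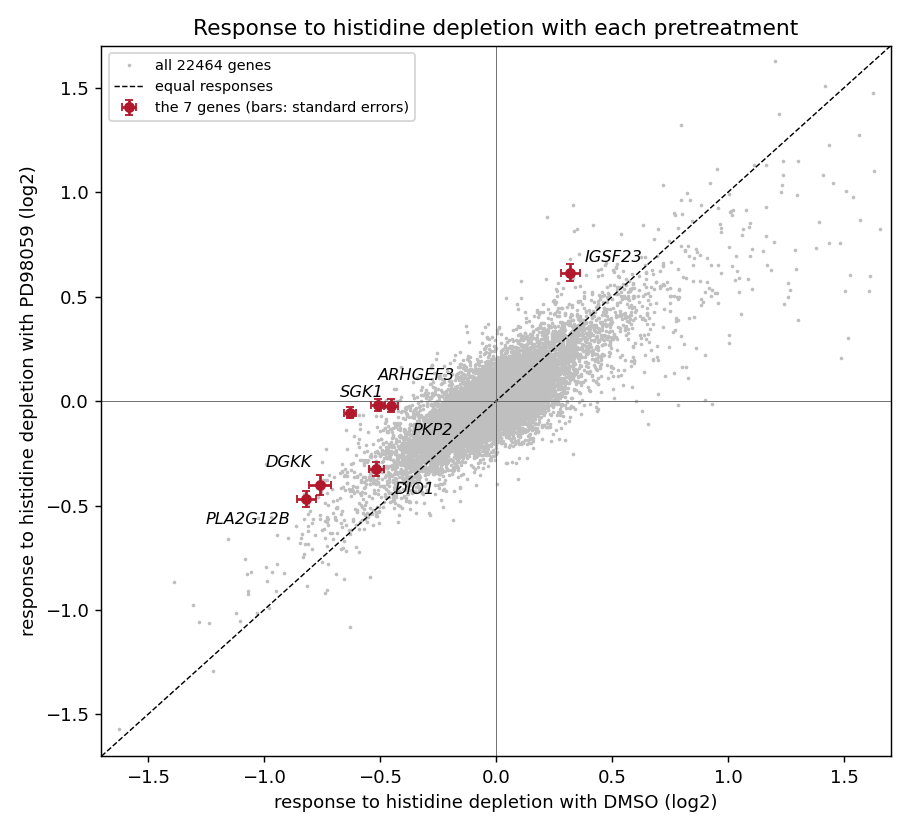
Response to histidine depletion with PD98059 (vertical) against that with DMSO (horizontal), both log2, for all 22464 genes (grey, 17 lie outside the axes) and the 7 listed genes (red, bars are standard errors). All 7 lie above the line of equal responses, which is the property they were listed for, and SGK1, ARHGEF3 and PKP2 lie near 0 on the vertical axis.

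The 7 genes were not the 7 with the lowest p for a positive difference of responses. Among all genes, ordered by the p of a positive difference, SGK1 stood at 1, ARHGEF3 at 3 and PKP2 at 5, but PLA2G12B at 78, DGKK at 132, IGSF23 at 189 and DIO1 at 436. Ordered by the size of the difference, largest positive first, SGK1 stood at 5, ARHGEF3 at 15 and PKP2 at 38. In that order DGKK stood at 94, PLA2G12B at 106, IGSF23 at 237 and DIO1 at 868. These places describe the value the genes were listed for and are not a test of it. Over all genes 5.74% had a called difference of responses at an adjusted p under 0.05 in limma, 2.91% higher and 2.83% lower, and the largest positive one was 0.69. The rule has no threshold, so no gene lies just outside it.

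Averages over the other factor were tested in limma with Benjamini-Hochberg adjustment over all genes. In a design with equal groups the errors of their estimates are independent of that of the difference of responses. The genes were, however, listed with results of these arrays known, and the same spread per gene enters both. A low DMSO-His group also raises the difference of responses, lowers the average for depletion and raises that for PD98059. The averages of the 7 genes can thus restate in part what they were listed for, and these p-values are not independent evidence. Averaged over both media, PD98059 raised 7 of the 7 genes, against 15.0% of all genes called higher, 12.3% called lower and 27.3% called in either direction. DIO1 had the largest average at 0.88 ± 0.0239 (1.84-fold, adjusted p = 4.21e-13). PLA2G12B rose by 0.78 ± 0.0279 (adjusted p = 5.52e-12), IGSF23 by 0.76, DGKK by 0.71 and PKP2 by 0.51. The lowest averages were those of ARHGEF3 at 0.33 and SGK1 at 0.20 ± 0.0188 (adjusted p = 3.77e-07). For SGK1 the average joins values of opposite sign, 0.49 in depleted and -0.08 in complete medium. That of ARHGEF3 joins 0.57 in depleted and 0.08 in complete medium. The median of the 7 was 0.71, against 0.0040 over all genes, whose highest average was 1.05.

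Averaged over both pretreatments, histidine depletion lowered 6 of the 7 genes and raised 1, against 20.9% of all genes called lower, 17.1% called higher and 38.0% called in either direction. PLA2G12B changed by -0.64 ± 0.0279 (adjusted p = 1.63e-11), DGKK by -0.58 and DIO1 by -0.42. SGK1 changed by -0.34 ± 0.0188 (adjusted p = 3.06e-10), ARHGEF3 by -0.26 and PKP2 by -0.24, averages that rest on the DMSO arrays, since the responses of these 3 genes under PD98059 were between -0.06 and -0.02. IGSF23 rose by 0.47 ± 0.0296 (adjusted p = 1.62e-09). Without PD-His replicate 3 the responses of SGK1, ARHGEF3 and PKP2 under PD98059 were -0.04, 0.00911 and -0.0020.

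**Figure D3:**
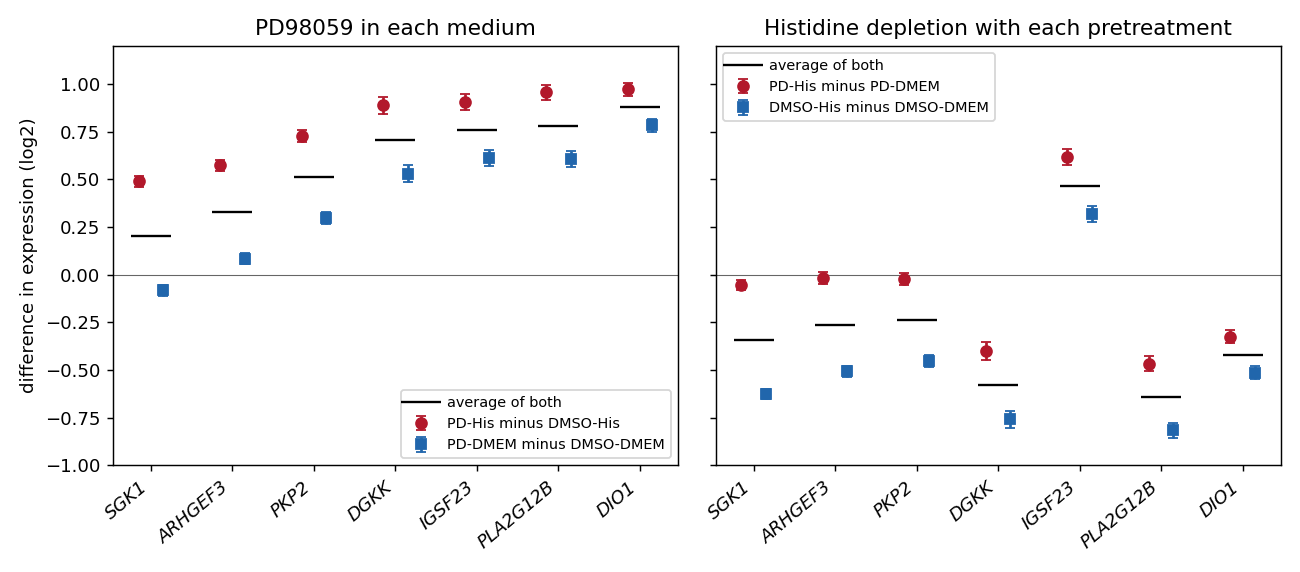
Log2 differences for the 7 genes, with standard errors of the fit: PD98059 against DMSO within each medium (left) and histidine-depleted against complete medium within each pretreatment (right), with the average of both as a line. All 7 averages with PD98059 are above 0, from 0.20 for SGK1 to 0.88 for DIO1, and 6 of 7 averages for depletion are below 0.

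Over all genes, 17.1% were called higher and 20.9% lower for depletion, and 15.0% and 12.3% for PD98059. For the difference of responses the shares were 2.91% and 2.83%. The list counts that follow stand beside these shares and were not tested against them. Of 15 measured SGK and AKT kinases and upstream activators, 4 rose and 6 fell with depletion, 3 rose and 2 fell with PD98059, and 1 difference of responses was called higher and 1 lower (2 and 1 without PD-His replicate 3, 0 and 2 without PD-His replicate 2). SGK2, a paralog of SGK1, had an average response to depletion of -0.54 ± 0.0213 (adjusted p = 4.66e-12), with responses of -0.54 under PD98059 and -0.54 with DMSO. Its difference of responses was 0.0038 ± 0.0425 (adjusted p = 0.978). PDPK1, which encodes the kinase PDK1, rose by 0.31 on average. RICTOR had a difference of responses of -0.60 ± 0.0692 (adjusted p = 6.15e-05), opposite in sign to that of SGK1, and averaged 9.59 in PD-His and 9.47 in PD-DMEM, against 10.21 in DMSO-His and 9.48 in DMSO-DMEM. PIK3R1, a regulatory subunit of phosphoinositide 3-kinase, had 0.22 (adjusted p = 0.0259), a call that was lost when any 1 of 10 of the 16 arrays was left out (adjusted p from 0.0505 to 0.0588).

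Of 22 measured substrates and partners of SGK1, which include the ubiquitin ligase gene NEDD4L and the FOXO transcription factors, 11 rose and 5 fell with depletion, and 1 rose and 7 fell with PD98059. Their differences of responses were called higher for 2 genes and lower for 5, RICTOR among them, which is in both lists. Leaving out single arrays gave 1 to 3 higher and 4 to 6 lower, with 3 and 6 without PD-His replicate 3. The higher count was 1 without DMSO-DMEM replicate 1 or 3, DMSO-His replicate 1 or 4, PD-DMEM replicate 2, 3 or 4, or PD-His replicate 1 or 4. NDRG1, whose protein is a standard readout of SGK1 activity through its phosphorylation, had -0.45 ± 0.0545 (adjusted p = 0.000101), with responses of -1.08 under PD98059 and -0.63 with DMSO. FOXO3 had -0.29 (adjusted p = 0.00128) and rose with depletion on average by 0.64. SLC1A5, a glutamine transporter, rose by 0.77 with depletion, and WNK4 and FOXO1 fell with PD98059 by 0.35 and 0.29. FOXO4 was the 1 gene of the list that rose with PD98059, by 0.20. These are transcript levels and hold nothing on the activity of the kinase.

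SGK1 is named for its induction by serum and glucocorticoids. Of 18 measured hormone receptors and hormone-induced genes, 0 had a difference of responses called higher in limma (1 at an unadjusted p under 0.05) and 7 called lower (5 to 10 without single arrays, 10 without PD-His replicate 3), with a list median of -0.09 against -0.02 over all genes. NR3C1, the glucocorticoid receptor gene, had -0.35 ± 0.0393 (adjusted p = 5.01e-05), DUSP1, a MAP kinase phosphatase gene, -0.68 (adjusted p = 0.000145), and TAT, tyrosine aminotransferase, -0.43 (adjusted p = 0.0008). With depletion 8 of the 18 rose and 3 fell, ERRFI1 by 0.90. With PD98059 3 rose and 6 fell, among them IGFBP1, an insulin-like growth factor binding protein, at -1.42 ± 0.078 (adjusted p = 8.00e-10 in limma). That average joins -1.87 in depleted and -0.98 in complete medium. The responses of IGFBP1 to depletion were 0.0068 under PD98059 and 0.90 with DMSO.

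For PKP2, the 19 measured desmosome and adherens junction genes had 7 rising and 3 falling with depletion, 4 rising and 6 falling with PD98059, and 1 difference of responses called in each direction (3 higher and 1 lower without PD-His replicate 3). CDH1, the epithelial cadherin gene, had 0.26 ± 0.0392 (adjusted p = 0.000728) and, like PKP2, was raised by PD98059, by 0.28 on average. KRT18, of the same list, fell with PD98059 by 0.30 (adjusted p = 3.90e-10 in limma). DSP, which encodes the desmosomal linker desmoplakin, rose with depletion by 0.31, and DSG2, a desmosomal cadherin gene, rose by 0.19 with depletion and fell by 0.21 with PD98059. The plakophilin genes PKP1 and PKP3, named for their kinship, were not called for PD98059 (-0.0081 and -0.0065, adjusted p = 0.924 and 0.922). CTNNA1, alpha-catenin, had -0.12 (adjusted p = 0.0338), which was lost when any 1 of 12 arrays was left out (adjusted p from 0.0524 to 0.0756).

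Of 26 measured diacylglycerol kinase and signalling genes, 4 rose and 5 fell with depletion, and 4 rose and 4 fell with PD98059. DGKG, another diacylglycerol kinase gene, fell with PD98059 by 0.19 (adjusted p = 1.95e-05), the opposite sign to DGKK. Its row was dim, with group means of 6.52 to 6.72 against a median of all values of 6.22. PLCD1 and PLCB1, of the same list, rose with PD98059 by 0.13 and 0.15, the sign of DGKK. PLCG1, a phospholipase C that makes diacylglycerol, fell with depletion by 0.23. The difference of responses was called for PRKCD alone, a protein kinase C gene, at -0.19 (adjusted p = 0.016), in limma, with 1 gene at an unadjusted p under 0.05 in each direction, and for 2 higher and 1 lower without PD-His replicate 3. The call of PRKCD was lost with arrays shifted to the same median (adjusted p = 0.0708). Of 25 measured IGSF and CEACAM genes, 4 rose and 1 fell with depletion, and 1 rose and 6 fell with PD98059. The first count was 2 without DMSO-DMEM replicate 1 or 4 or PD-DMEM replicate 1 or 2, 6 without PD-His replicate 2 and 7 without PD-His replicate 1. The count that fell with depletion was 2 without DMSO-DMEM replicate 2, DMSO-His replicate 2, PD-DMEM replicate 1 or PD-His replicate 3. CEACAM1, a cell adhesion gene of the same superfamily, fell with PD98059 by 0.43 (adjusted p = 4.25e-10) and had a difference of responses of 0.23 (adjusted p = 0.0053), the 1 call in limma and the 1 gene at an unadjusted p under 0.05. Without PD-His replicate 3 there were 1 higher and 2 lower.

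PLA2G12B has its place in lipoprotein assembly. Of 23 measured secreted phospholipases A2 and lipoprotein assembly genes, 12 fell and 3 rose with depletion, and 7 rose and 1 fell with PD98059 (10 and 1 without PD-His replicate 3, and 2 falling without PD-DMEM replicate 1 or PD-His replicate 2), with list medians of -0.08 and 0.04. DGAT2 and DGAT1, the last enzymes of triglyceride synthesis, rose with PD98059 by 0.47 (adjusted p = 2.00e-10) and 0.29, and APOC3, an apolipoprotein gene, by 0.42. SURF4, a cargo receptor for lipoprotein export, fell with depletion by 0.23 and PLA2G2A by 0.31. The closest paralog, PLA2G12A, named for its kinship, was at 0.06 with PD98059 (adjusted p = 0.229) and fell with depletion by 0.10 (adjusted p = 0.0204). In limma 0 of the 23 had a called difference of responses, with 4 at an unadjusted p under 0.05, and 3 were called without PD-His replicate 3.

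Around DIO1, 7 of 19 measured genes of thyroid hormone action rose with PD98059 and 1 fell, and 4 rose and 6 fell with depletion. The thyroid hormone receptor genes THRB and THRA rose with PD98059 by 0.35 ± 0.0218 (adjusted p = 4.25e-09) and 0.22. SLC16A10, a transporter of thyroid hormones and aromatic amino acids, rose with PD98059 by 0.35 and fell with depletion by 0.59, the signs seen for DIO1, and SERPINA7, the thyroxine-binding globulin gene, fell with depletion by 0.42. The differences of responses called in limma were lower for 2 (1 higher and 2 lower without PD-His replicate 3, and 1 higher and 3 lower at an unadjusted p under 0.05), SLC7A5 at -0.19 (adjusted p = 0.00387) and DIO2, another deiodinase gene on a row below the median of all values, at -0.28 (adjusted p = 0.0298). That of DIO2 was lost when any 1 of 8 arrays was left out (adjusted p from 0.0544 to 0.0683), and with the mean of its rows (-0.16, adjusted p = 0.0951).

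DIO1 is a selenoprotein, and the 20 other selenoprotein and selenocysteine synthesis genes measured had 7 rising and 7 falling with depletion, and 4 rising and 5 falling with PD98059. TXNRD1, thioredoxin reductase, moved oppositely to DIO1, at 0.53 ± 0.0163 (adjusted p = 2.31e-13) with depletion and -0.39 ± 0.0163 (adjusted p = 2.85e-11) with PD98059, and its difference of responses was -0.27 (adjusted p = 0.000113), the 1 call of the list in limma and the 1 gene at an unadjusted p under 0.05. Without PD-His replicate 3 there were 1 higher and 2 lower. MSRB1, a methionine sulfoxide reductase gene, had the signs of DIO1, -0.20 with depletion and 0.22 with PD98059. SEPSECS, the enzyme that makes selenocysteine on its tRNA, rose with depletion by 0.63.

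**Figure D4:**
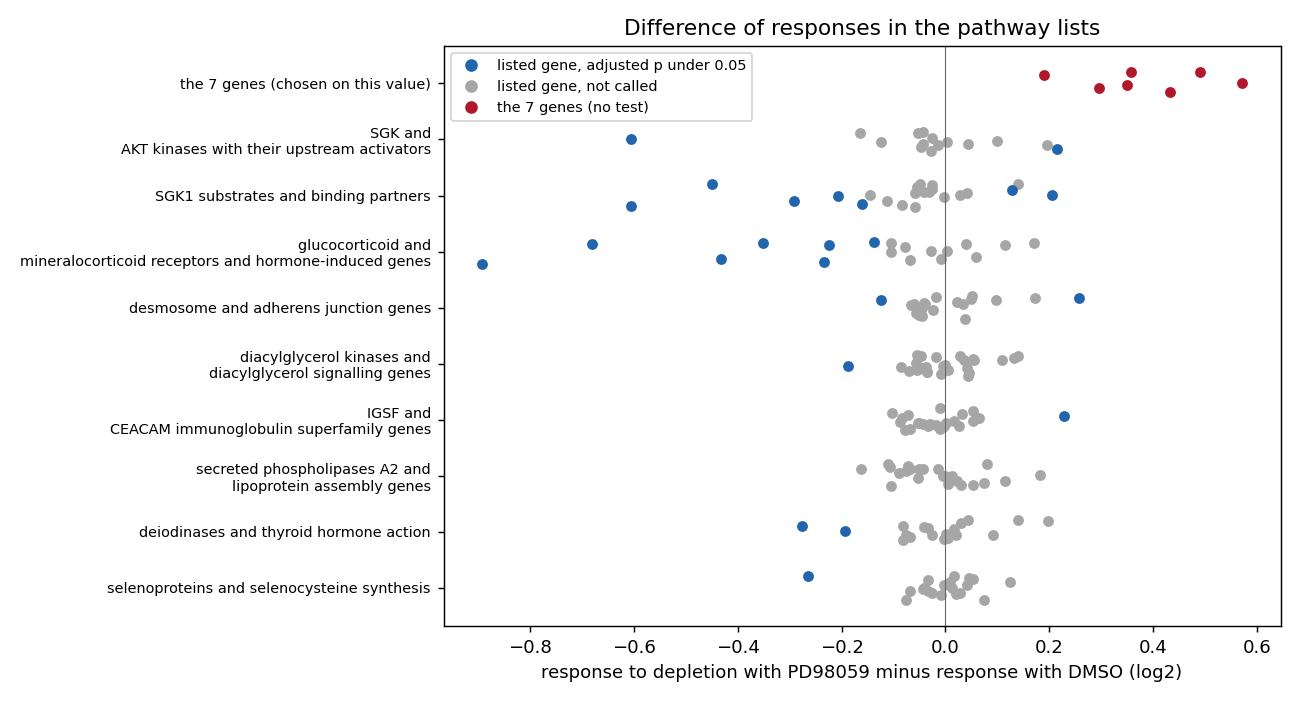
Difference of responses (response to depletion with PD98059 minus that with DMSO, log2) for the 7 genes (red, no test) and for every measured gene of 9 pathway lists (blue at an adjusted p under 0.05, grey otherwise). The called genes of the glucocorticoid list all lie below 0, while the 7 genes lie between 0.19 and 0.57 because they were listed for this value.

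The genes whose levels followed each listed gene most closely over the 16 arrays are given by Pearson correlation, as a description over arrays that share 4 groups, among 5725 genes with at least 1 group mean above the median of all values and an SD of at least 0.1. For SGK1 they were CHST15 (0.979), POLA2 (0.961) and VSNL1 (0.959). CHST15, a chondroitin sulfotransferase gene, had responses of -0.04 under PD98059 and -0.35 with DMSO, and POLA2, a DNA polymerase alpha subunit gene, -0.22 and -0.59 in the same order. ARHGEF3 was followed by TEX2 (0.978), SALL1 (0.976) and CAMK2G (0.975). SALL1, a zinc finger transcription factor gene, had responses of -0.03 under PD98059 and -0.33 with DMSO. PKP2 was followed by EHHADH (0.990), GATA6 (0.987) and USP18 (0.987), of which EHHADH, an enzyme of peroxisomal fatty acid oxidation, had responses of -0.07 under PD98059 and -0.58 with DMSO.

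The closest genes for DGKK were AMACR (0.997), AK4 (0.996) and PLXNC1 (0.993). AMACR encodes the racemase of branched-chain fatty acid oxidation and had responses of -0.19 under PD98059 and -0.37 with DMSO. Those for PLA2G12B were TMT1A (0.994), TCEA3 (0.994) and SEMA4G (0.994). DIO1 was closest to FOXA1 (0.992), RHOBTB1 (0.991) and ANXA9 (0.990), and FOXA1, a pioneer transcription factor gene of liver, differed with PD98059 by 0.62 in depleted and 0.45 in complete medium. IGSF23 was closest to ACAD11 (0.978), SLC30A10 (0.972) and SERPINC1 (0.971). ACAD11, a mitochondrial and peroxisomal acyl-CoA dehydrogenase gene, had responses of 0.38 under PD98059 and 0.14 with DMSO, and SERPINC1, the antithrombin gene, 0.19 and 0.22.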

How the data were processed

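Each of 16 Affymetrix arrays measured biotin-labelled material from 1 culture, with 4 independent incubations per condition, per the labels' protocols. The deposited values are log2 expression values that the authors made with RMA and Partek 6.6 on build hg19, per the submitters' processing notes. The settings of RMA, which usually includes quantile normalization, are not given in the sources used here. Without scanner files, which were not used here, neither detection above background nor scan dates could be examined. Rows are called dim here only by their log2 level beside the median of all values. Precision is limited by 4 arrays a group.

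Of 70459 rows, 23780 had 1 gene symbol in the platform annotation, 1543 had several and were left out, and 45136 were absent from it and have no name here. Each of 22464 symbols was represented by its row of highest mean. A model with 1 mean per group was fitted to all 16 arrays (limma 3.58.1, R 4.3.3, moderated by eBayes). Benjamini-Hochberg adjustment covered all 22464 genes, and a call needs an adjusted p under 0.05. Errors after ± are the fit's standard errors.

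The 7 genes, the pathway lists and the tests were chosen with earlier results of these data known. From each list up to 3 called genes with the lowest adjusted p were drawn in each of 3 contrasts. The text names a selection of these and not all of them. Kin of the 7 genes were named besides. The counts of 1 other list are not reported here. Alternatives tried were a replicate block, another variance model, a median shift, array weights, a second quantile normalization, leaving out dim genes, averaging the rows of a symbol, a test of every row, a stricter threshold and leaving out each array.

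Samples of a group share numbers across groups in their titles. Deviations from the group means correlated at -0.32 to 0.51 between same-numbered arrays, above 0.1 in 9 of 24 pairs. The highest were among replicate 3 of PD-His, PD-DMEM and DMSO-His (0.37 to 0.51) and between replicate 1 of PD-His and PD-DMEM (0.46). The main model did not pair the samples by number, and these values do not settle whether some numbers mark a shared source.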

Additional observations from a re-analysis of the deposited data

Results flagged for a closer look

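PKP2 on DMSO-His replicate 1 lay at 10.02 (log2), away from the other 3 arrays of its group, the nearest of which was at 10.08. Among 28 groups of 4 values of the listed genes it was the 1 that Dixon's test marked as an outlier, which chance gives in about 1 of 20 groups.

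The response to depletion differed between PD98059 and DMSO, by limma's test of the difference itself, for the 17 pathway genes given here. They are at most 3 from each list, those with the lowest adjusted p, and not all the called genes. Among the 17 it was more positive with PD98059 for PIK3R1 at 0.22 (adjusted p = 0.0259), ARHGEF40 at 0.24 (adjusted p = 0.00222), ARHGEF28 at 0.22 (adjusted p = 0.0148), CDH1 at 0.26 (adjusted p = 0.000728) and CEACAM1 at 0.23 (adjusted p = 0.0053). A more negative response with PD98059 was found for RICTOR at -0.60 (adjusted p = 6.15e-05), NDRG1 at -0.45 (adjusted p = 0.000101), FOXO3 at -0.29 (adjusted p = 0.00128), NR3C1 at -0.35 (adjusted p = 5.01e-05), DUSP1 at -0.68 (adjusted p = 0.000145) and TAT at -0.43 (adjusted p = 0.0008). The others with a more negative response were ARHGEF2 at -0.74 (adjusted p = 5.10e-08), CTNNA1 at -0.12 (adjusted p = 0.0338), PRKCD at -0.19 (adjusted p = 0.016), SLC7A5 at -0.19 (adjusted p = 0.00387), DIO2 at -0.28 (adjusted p = 0.0298) and TXNRD1 at -0.27 (adjusted p = 0.000113).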

How the results depend on the processing

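Under 25 alternatives the 7 genes kept their direction and their call in both averaged comparisons, and the direction of their difference of responses. Without any 1 array, the average with PD98059 was 0.20 to 0.21 for SGK1 and 0.86 to 0.89 for DIO1, and the difference of responses 0.56 to 0.59 for SGK1, 0.31 to 0.41 for DGKK and 0.16 to 0.21 for DIO1. Genes with a called difference of responses numbered 1289, against 782 with arrays shifted to the same median (321 higher and 461 lower, against 654 and 635), 4615 with array weights, 592 at an adjusted p under 0.01 and 916 to 3145 without any 1 array, the last without PD-His replicate 3. Testing every row gave 16464 calls for depletion and 9529 for PD98059, against 8535 and 6137 genes. The replicate block gave 9034, 6413 and 1492 calls for depletion, PD98059 and the difference of responses, changed no call of the 7 genes, and 6 of 16 arrays correlated best with an array of their own number. Of 77 results for pathway genes, 5 lost their call under at least 1 alternative, PIK3R1, ARHGEF28, CTNNA1, PRKCD and DIO2, each for its difference of responses, among others with arrays shifted to the same median (adjusted p = 0.118, 0.0913, 0.208, 0.0708 and 0.0774 in that order). Apart from the number of rows or arrays and the threshold, the cause was not tested.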
